A study of Mus musculus with 21 samples.

Results

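Adult skeletal muscle fibers are sorted into types by the myosin heavy chain that they hold. Slow type 1 fibers carry the product of Myh7, and the fast types 2A, 2X and 2B carry those of Myh2, Myh1 and Myh4. A single fiber can express the genes of neighboring types together, and such hybrid fibers are common in a mixed muscle such as the mouse soleus, which holds mostly type 1 and type 2A fibers. Myosin is only one of the proteins that differ: slow and fast fibers also have their own myosin light chains, troponins, tropomyosins and calcium pumps, and differ in their metabolism.

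The myofibers described here are 8 type 1 myofibers of the soleus that were picked by their Myh2 signal, the 4 with the highest and the 4 with the lowest, out of 21 single myofibers measured on Agilent arrays. The study set 11 type 1 myofibers of the soleus beside 10 type 2B myofibers of the extensor digitorum longus (EDL), all from untreated CD1 mice of 3 months. No mutation, transgene or treatment separated the groups. Each myofiber was freed with collagenase, a clipped piece was typed by its myosin protein on a gel, and the rest gave the RNA, which was amplified before labeling. Per the labels the mice were male, while the study's methods name female mice. Ddx3y, a gene of the Y chromosome, was well above background in 8 of the 8 myofibers (log2 signal 7.06 to 8.46). Of 5 sex-linked genes, Ddx3y and Xist among them, 1 to 4 were well above background in high and 2 to 5 in low myofibers. One probe of Xist, an RNA of female cells, read 9.57 in S16.3. The sex of the mice was not settled by these values.

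The type 1 myofiber S6.4 was set aside, since its Myh7 signal lay far below the others, and 10 were considered. A myofiber's name gives its number and then its mouse. S15.2 was dropped because its Myh2 spot carried an outlier flag, and the other 9 were ranked by the log2 signal of the Myh2 probe, normalized over the 21 arrays. The high group was S16.3, S9.4, S11.3 and S10.8, from 3 mice, with 2 of its myofibers from mouse 3. The low group was S10.10, S5.9, S7.2 and S7.3, from 4 mice, and mouse 3 gave 1 of them. Values are given below in these orders, which run from the highest Myh2 to the lowest. Nothing but the Myh2 signal defines the groups, both are parts of 1 labelled group, and every one of these myofibers was labelled type 1.

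The probes that the result turns on are shown first, as parts of 60-base probes on the mm9 build that the array files name. The Myh2 probe A_55_P2106068, at chr11:67010960-67011019, made the groups, and the Tnni2 probe A_55_P2040893, at chr7:149630251-149630310, read a fast troponin. Capitals mark AATAAA, the usual polyadenylation signal, which stands in both. These are bases 16 to 45 of the first and 30 to 59 of the second.
Myh2: ctgttgtaaggaAATAAAaagcccaagttc
Tnni2: tggcctcgctccAATAAAggattcacatct
AATAAA was found as written in 5602 of the 55681 probes (10.06%), and in 7490 (13.45%) when its reverse complement was searched too.

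The next probes are shown whole. Tnnt3, which encodes the fast troponin T, had a pair of neighboring probes, at chr7:149698467-149698526 and at chr7:149698500-149700262, that share 27 bases, given in capitals. They are near copies of one measurement and not separate evidence. The third sequence is that of 2310065F04Rik, also called linc-Myh, a noncoding RNA made from the cluster of fast myosin genes, at chr11:66925963-66926022. It has no capitals.
Tnnt3 A_55_P2088375: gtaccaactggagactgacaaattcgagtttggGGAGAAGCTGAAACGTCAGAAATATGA
Tnnt3 A_51_P345699: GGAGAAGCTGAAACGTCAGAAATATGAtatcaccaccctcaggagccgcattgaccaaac
2310065F04Rik A_55_P2337033: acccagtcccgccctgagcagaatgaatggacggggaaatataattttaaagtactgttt

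The Myh2 log2 signal was 12.70, 8.81, 8.58 and 7.62 in the high group and 4.48, 3.82, 2.39 and 1.71 in the low group. These values chose the myofibers, so that the gap of 6.33 between the means (9.43 ± 2.24 against 3.1 ± 1.27, SD, n = 4 each) is a description with no test. S16.3 stood above the rest of its group, and the other 3 lay close together. Just outside the groups was S14.2 at 7.26, directly under S10.8 at 7.62 and well above S10.10 at 4.48. The flagged spot of S15.2 read 10.38, and S6.4 read 14.85. The spot was well above background in 4 of 4 high and in 1 of 4 low myofibers, S5.9, so that the low end holds levels near background that have little order among themselves. Type 2B myofibers lay between 1.76 and 3.59, the range of the lower part of the low group. With each array scaled to its 75th percentile, or with another background correction (normexp), the same 4 and the same 4 were picked, and the gap was 6.76 and 3.47.

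**Figure D1:**
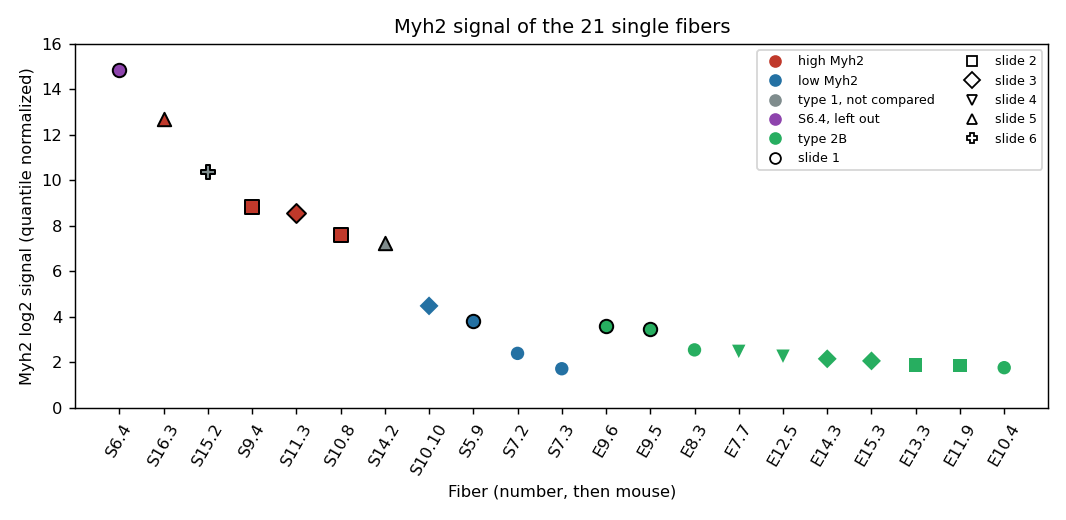
Log2 Myh2 signal (vertical axis) of the 21 single myofibers (horizontal axis), with the high group in red, the low group in blue, type 1 myofibers not compared in grey, S6.4 in purple and type 2B in green. Marker shape gives the slide, and a black outline marks a spot well above background, as in all 4 high and 1 of 4 low myofibers.

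The myosin that defines type 1 fibers overlapped between the groups. Myh7, the slow myosin, read 15.49, 15.49, 15.74 and 15.58 in the high group and 15.88, 15.19, 15.29 and 15.82 in the low group, all far above S6.4 at 8.89 and the 6.42 to 7.50 of type 2B. The difference of the means was 0.03 ± 0.31 (SE; 95% interval -0.66 to 0.72, limma). Thus the label type 1 held in each of the 8 by its defining gene, and a difference in Myh7 larger than 0.72 on the log2 scale in either direction lay outside that interval.

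The arrays were not balanced over the slides. Of the low group, S5.9, S7.2 and S7.3 were on slide 1 and S10.10 on slide 3, while the high group had no array on slide 1 and S11.3 on slide 3. Slide 1 was also the only slide of scan day 1. Among the 8 arrays, the lowest log2 signal called well above background was 2.45 to 2.84 in the 3 on slide 1, 4.74 in S10.10, and 3.57 to 5.64 in the high group, where S11.3 had the highest. The share of spots positive and significant against background was 63.1% to 82.4% in the high and 68.9% to 91.5% in the low group, with means of 74.1% and 84.4% (exact permutation test, two-sided, p = 0.171, where 0.0286 is the smallest p that 70 groupings allow). The 75th percentile of the signal was 62.4 to 179 and 107 to 520 scanner units (exact p = 0.114). No spot of any array was saturated. Among type 2B myofibers, which had no part in the ranking, 4 on slide 1 against 6 on other slides differed at 284 of 45394 probes (0.626%) after Benjamini-Hochberg adjustment in limma. Myh2 level and slide can therefore be compared within a slide only through S11.3 and S10.10, the pair on slide 3. For a gene that single difference, with no test, is given below where both spots were above these limits. The medians and counts of a list on slide 3 take in all its tested genes, also those near background.

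Across the other probes no difference passed. limma tested 45394 of 55681 probes, and 0 (0%) passed a Benjamini-Hochberg adjusted p of 0.05, the smallest being 0.334. At an unadjusted p of 0.05, limma had 1177 probes higher (2.59%) and 1012 lower (2.23%) in the high group, 2189 in all, which is 4.82% of the probes tested. The methods' t-test, run with p-values from its formula and not with the permutations that the methods name, had 1853 at that level and also none after adjustment. All 4 high myofibers lay above all 4 low ones at 938 probes (2.07%) and below them at 595 (1.31%). The median difference was 0.02 over all probes and 0.03 over the 29935 genes, each read by its brightest probe. The median SE of a difference was 0.47. Every gene below is therefore given by its values, and the Benjamini-Hochberg adjusted p was 0.942 or more for each unless another is printed.

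**Figure D2:**
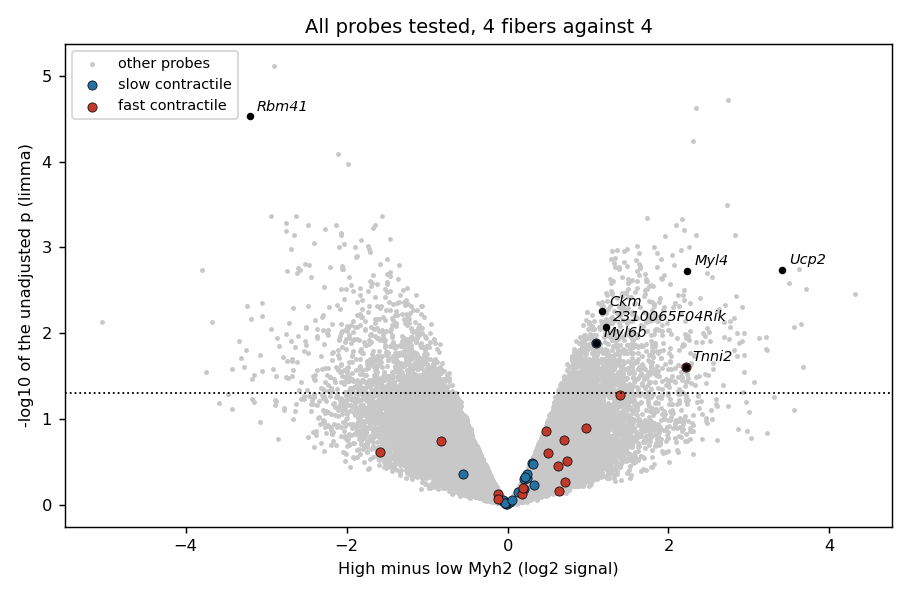
Difference in log2 signal, high minus low (horizontal axis), against -log10 of the unadjusted limma p (vertical axis) for the 45394 probes tested, with slow contractile genes in blue, fast contractile genes in red and a dotted line at an unadjusted p of 0.05. Slow genes gather near 0, most fast genes lie to the right, and 1 of each list passes the line to the right.

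Of the 9 myosin heavy chain genes tested other than Myh2, 6 were higher and 3 lower, with a median of 0.03 against 0.03 over all genes. Myh7b and Myh6, which stand with the slow and cardiac genes, differed by 0.13 ± 0.33 and -0.06 ± 0.42 (SE). Myh8, the perinatal myosin, differed by 0.03 ± 0.30 and Myh3, the embryonic one, by 0.39 ± 0.69. None of these groups was apart from the other.

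Myh1, the 2X myosin and next in the series after Myh2, was seen in the myofiber with the most Myh2. It read 4.87, 1.70, 1.80 and 1.69 in the high group and 1.68, 1.67, 1.64 and 1.64 in the low group, and only S16.3 was well above background. It was 5.57 in S15.2 and 9.16 in S6.4, so that the type 1 myofibers with Myh1 signal here were those whose Myh2 signal was over 10. The probe did not meet the filter and was not tested. Myh4, the 2B myosin, read 4.22, 1.80, 2.36 and 1.79 in the high group and 1.80, 3.77, 2.64 and 8.28 in the low group, a difference of -1.58 ± 1.28 (SE). That difference came mostly from 1 low myofiber, S7.3, and all 8 lay far under the 14.09 to 15.47 of type 2B.

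Myh15, an ancient slow-type myosin, was the myosin with the smallest p. It read 3.05, 2.99, 5.64 and 3.47 in the high group and 4.29, 6.46, 6.84 and 4.56 in the low group (unadjusted p = 0.0491, limma). It was well above background in 0 of 4 high and 3 of 4 low myofibers. With the high arrays taken at their limits, the level was 2.41-fold lower in the high group, which is no strict bound, since S10.10 was itself under its limit. On slide 3 neither myofiber was well above background, and their signals give no direction. Myh14, a nonmuscle myosin, read 10.68, 10.64, 10.07 and 10.63 against 10.67, 9.80, 9.02 and 8.85, with S10.10 in the range of the high group. Its difference was 0.92 ± 0.44 (SE), and -0.61 on slide 3.

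No slow contractile gene passed the adjusted threshold. Of 20 tested, 12 were higher and 8 lower, with a median difference of 0.09, and for 12 the 95% interval lay within 1 log2 unit on either side of 0. With the arrays scaled to the 75th percentile the median was -0.02, so that its sign carries no weight. At the unadjusted level 1 gene was higher (against 2.59% of probes) and 0 lower. Tnni1, the slow inhibitory troponin, read 15.29, 15.52, 15.81 and 15.70 against 15.41, 14.84, 15.11 and 15.66. Myl2 and Myl3, the slow light chains, differed by 0.21 ± 0.30 and 0.24 ± 0.34, Tnnt1, the slow troponin T, by 0.24 ± 0.29, and Atp2a2, the slow calcium pump, by -0.01 ± 0.41 (SE). Casq2, the calsequestrin of slow and cardiac muscle, had the lowest difference of the list at -0.56 ± 0.69.

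The exception among the slow genes was Myl6b, a light chain of slow muscle. It read 10.71, 10.26, 9.51 and 9.92 in the high group and 9.27, 9.27, 8.73 and 8.74 in the low group. The groups did not overlap, and the difference was 1.1 ± 0.36 (SE; unadjusted p = 0.0129, limma). S14.2 and S15.2 read 10.39 and 10.92, in the range of the high group. On slide 3 the difference was 0.24. Myom3, an M-band protein, also did not overlap, but the gap was as small as 0.31 ± 0.30.

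Of the 16 fast contractile genes tested, 12 were higher and 4 lower, with a median difference of 0.56 against 0.03 over all genes. At the unadjusted level 1 was higher and 0 lower, as against 2.59% and 2.23% of all probes. The median did not hold within the slide: it was 0.01 between S11.3 and S10.10, where 8 of 16 were higher. That pair includes spots near background: of the 17 genes listed, 11 were well above background in S11.3 and 12 in S10.10. With the slide as a random block the median was 0.21, and without S10.8 it was 0.35.

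Tnni2, the fast inhibitory troponin, read 10.92, 9.47, 8.62 and 11.39 in the high group and 9.92, 7.97, 6.89 and 6.76 in the low group. The difference was 2.21 ± 0.83 (SE; unadjusted p = 0.0245, limma), and the groups overlapped through S10.10, which lay above S9.4 and S11.3. On slide 3 the difference was -1.30, the opposite direction. The myofibers outside the comparison were higher than either group, at 13.23 in S14.2 and 12.12 in S15.2, while S6.4 read 16.08 and type 2B 15.73 to 16.47. So Tnni2 varied widely among type 1 myofibers, and its order was not that of Myh2: S14.2, just under the high group by Myh2, was highest of these 10.

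Mylpf, the fast regulatory light chain, read 7.36, 7.13, 6.95 and 7.52 in the high group and 7.24, 6.70, 5.26 and 4.17 in the low group. The 2 lowest were S7.2 and S7.3, and S10.10 lay among the high group (difference 1.40 ± 0.63, SE; slide 3, -0.29). The 2 Tnnt3 probes shown above differed by 0.97 ± 0.58 and 0.94 ± 0.50 (SE). By A_51_P345699 Tnnt3 read 10.58, 8.28, 8.50 and 8.16 against 8.16, 7.59, 8.57 and 7.32, where S16.3 stood apart. S14.2 and S15.2 read 11.53 and 11.38, above all 8, as they did for Mylpf at 9.16 and 9.95.

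Myoz1, a Z-disc protein of fast fibers, did not overlap between the groups, with 10.32, 10.43, 10.50 and 11.05 against 10.16, 10.08, 9.99 and 10.14, a difference of 0.48 ± 0.30 (SE). Tnnc2, Tpm1 and Myl1, which are fast troponin C, the alpha tropomyosin and the fast essential light chain, differed by 0.71 ± 0.48, 0.74 ± 0.68 and 0.50 ± 0.41 (SE), and by -1.01, -1.36 and -0.97 on slide 3. Atp2a1, the fast calcium pump, differed by 0.19 ± 0.40. Pvalb, a calcium buffer of the fastest fibers, was lower at -0.82 ± 0.56, with the flagged spot of S5.9 left out. Pvalb, Actn3 and Mybpc2, which mark type 2B fibers, were below 8 in every high and low myofiber measured and 14.19 or more in type 2B.

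**Figure D3:**
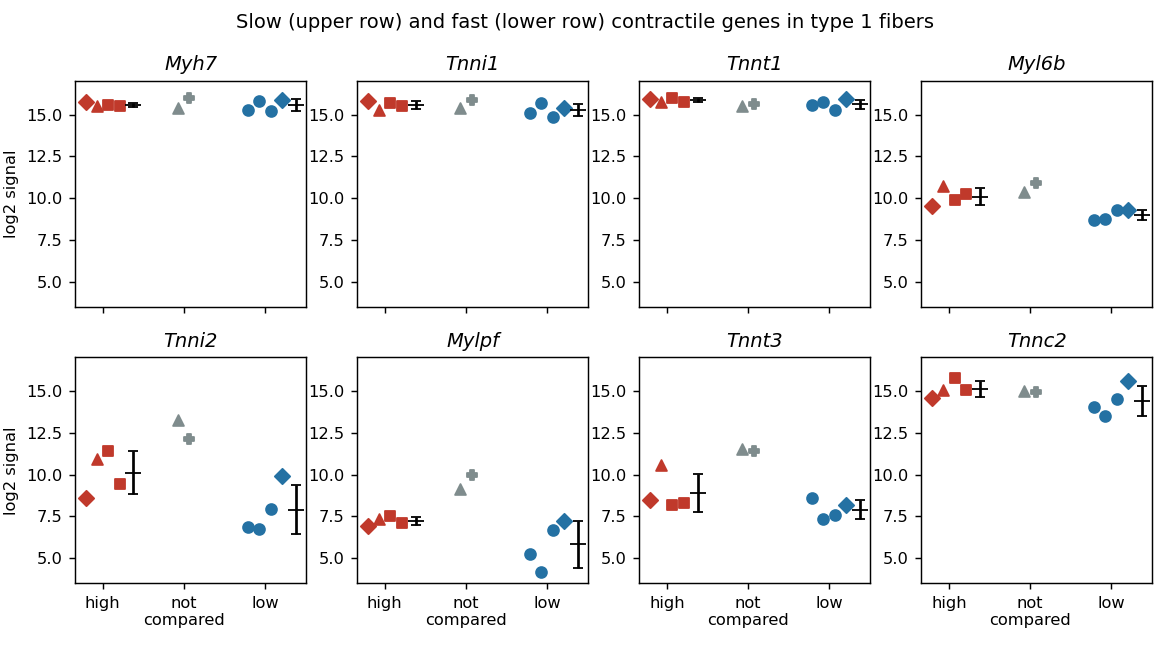
Log2 signal (vertical axis) of 4 slow (upper row) and 4 fast (lower row) contractile genes in the high group (red), the type 1 myofibers not compared (grey) and the low group (blue), 1 point a myofiber, with the slide as marker shape and mean ± SD as bars. The slow genes Myh7, Tnni1 and Tnnt1 lie level, and for Tnni2, Mylpf and Tnnt3 the grey points lie above both groups.

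2310065F04Rik, which was already shown by its probe, is known for favoring fast over slow gene expression. It read 6.78, 7.79, 7.83 and 7.46 in the high group and 6.75, 5.80, 6.17 and 6.27 in the low group, and 9.32 to 11.14 in type 2B. The groups did not overlap, though S16.3 and S10.10 were close together. The difference was 1.22 ± 0.37 (SE; 95% interval 0.40 to 2.04; unadjusted p = 0.00838, limma) and 1.08 on slide 3. Thus S16.3, which had the most Myh2, had the least of this RNA in its group, and S6.4, with more Myh2 still, read 5.89.

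Ckm, the muscle creatine kinase that buffers ATP and is higher in fast fibers, read 13.85, 13.69, 13.78 and 14.31 in the high group and 13.12, 12.57, 12.27 and 12.97 in the low group. All high myofibers were above all low ones, and S14.2 at 13.53 and S15.2 at 13.71 lay between the 2 groups and at the foot of the high one. The difference was 1.18 ± 0.33 (SE; 95% interval 0.44 to 1.91; unadjusted p = 0.00558, limma), and 0.66 on slide 3. Of the 12 genes for creatine and nucleotide buffering, 9 were higher and 3 lower, with a median of 0.15, and Ckm was the only one with an unadjusted p under 0.05, beside 2.59% of all probes higher and 2.23% lower at that level.

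No gene of fuel use passed the adjusted threshold, and Ucp2 had the smallest unadjusted p. Ucp2, a carrier of the inner mitochondrial membrane, read 9.61, 10.55, 11.04 and 7.04 in the high group and 6.26, 6.83, 5.72 and 5.76 in the low group. The first 3 were far above the low group and S10.8 only just, and S14.2 at 6.13 lay with the low group. The difference was 3.42 ± 0.79 (SE; 95% interval 1.63 to 5.20; unadjusted p = 0.00181, limma), and 4.77 on slide 3. Its neighbor Ucp3, the muscle form, overlapped, at 10.00, 11.29, 10.03 and 8.74 against 7.08, 9.47, 9.49 and 9.06. Over the 35 genes of fatty acid use 19 were higher and 16 lower, with a median of 0.06.

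Of 37 genes of glycolysis and glycogen, which fast fibers rely on, 23 were higher and 14 lower, with a median of 0.23 that was -0.37 on slide 3. Slc16a3, the lactate exporter of fast fibers, read 6.76, 7.85, 6.93 and 7.16 against 6.51, 6.69, 5.67 and 5.52, with no overlap (difference 1.08 ± 0.40, SE; unadjusted p = 0.0250, limma; slide 3, 0.42). Pfkp, a phosphofructokinase, read 8.94, 7.67, 9.01 and 12.20 against 8.11, 8.11, 6.85 and 7.11, so that S10.8 set its difference of 1.91 ± 0.86 (SE). Gapdh differed by 0.71 ± 0.34 (SE).

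No oxidative gene passed the adjusted threshold. Complex I genes were higher in 24 of 37 and genes of complexes III to V in 26 of 38, with medians of 0.10 and 0.11, and those of the citric acid cycle in 15 of 26, with a median of 0.07. No gene of these 3 lists had an unadjusted p under 0.05 in limma, beside 2.59% of all probes higher and 2.23% lower. At 1 gene, Ndufb2 of complex I, all low myofibers lay above all high ones (-0.31 ± 0.28, SE). This held for 1.31% of all probes, and a second Ndufb2 probe did not show it. On slide 3 the medians of both sets of complexes were -0.62 and -0.63, with 3 of 37 and 4 of 38 higher. For 15, 21 and 11 genes of the 3 lists the 95% interval lay within 1 log2 unit of 0. Of 21 genes for oxygen and redox, 7 were higher and 14 lower (median -0.19), and Gpx3, a secreted glutathione peroxidase, read 6.16, 7.23, 6.16 and 7.25 against 8.15, 7.98, 7.77 and 7.38. The groups of Gpx3 did not overlap (difference -1.12 ± 0.39, SE; unadjusted p = 0.0176, limma). With all 21 arrays in the fit and the slide as a block the difference was -0.0011.

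Among 43 regulators of fiber type and oxidative metabolism, 23 were higher and 20 lower, with a median of 0.06, and at the unadjusted level 1 was higher (background 2.59%) and 4 lower (background 2.23%). Thrb, a thyroid hormone receptor, read 6.15, 6.19, 6.45 and 6.10 against 5.89, 5.0, 5.02 and 4.63, with no overlap (1.09 ± 0.35, SE; unadjusted p = 0.0119, limma), and its second probe differed by 0.57. Vgll2, a cofactor of TEAD factors, read 12.22, 12.68, 12.37 and 13.43 against 13.74, 13.94, 13.54 and 13.11 and overlapped through S10.8 and S7.3. Its difference was -0.90 ± 0.37 (SE).

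Nrf1 and Tfam, which drive nuclear and mitochondrial genes of respiration, were not settled, because their probes went different ways. The brightest Nrf1 probe, A_55_P2000077, differed by -2.00 ± 0.61, A_52_P376269 by 1.14 ± 0.38 and A_51_P201468 by -0.25 ± 0.44 (SE). The brightest Tfam probe, A_55_P2026445, differed by -1.64 ± 0.62 (SE) and by 0.11 on slide 3, A_51_P493720 by -1.84 and A_52_P351785 by 0.13. Ppargc1a, a coactivator that raises mitochondrial gene expression, differed by -0.83 ± 0.86 (SE), mostly through S5.9 at 12.73.

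**Figure D4:**
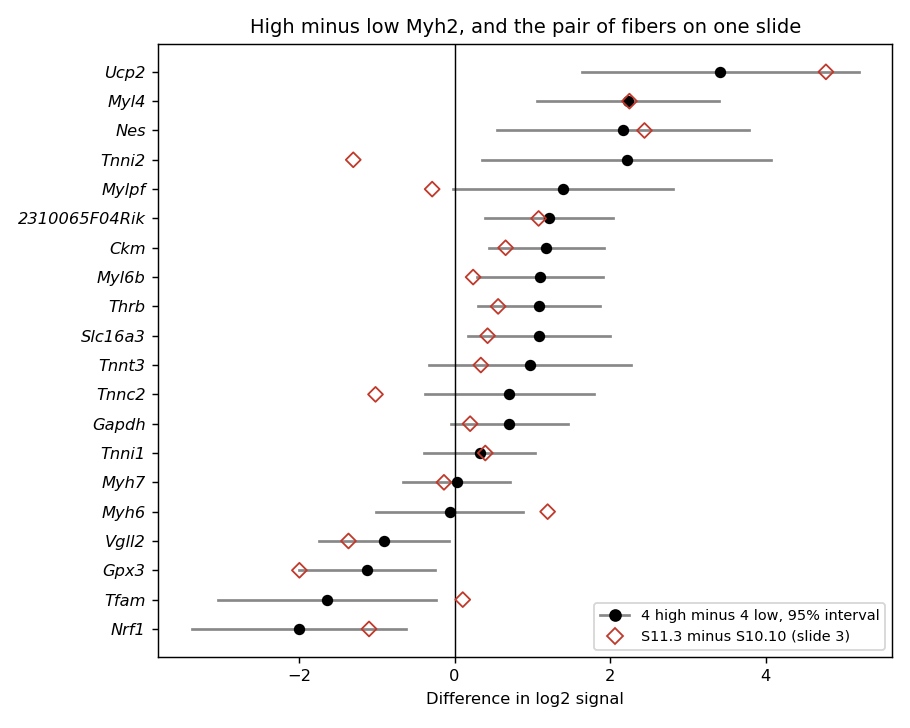
Difference in log2 signal, high minus low, of 20 genes (black points, with 95% intervals of limma as grey lines) and the difference between S11.3 and S10.10, the pair on slide 3 (open red diamonds). For Ucp2, Myl4 and 2310065F04Rik both lie well to the right of 0, and for Tnni2, Mylpf and Tnnc2 the pair lies to the left. At Nes the spot of S10.10 was below its limit of 4.74.

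Of 16 genes of developing muscle, 13 were higher and 3 lower, with a median of 0.23 that was -0.28 on slide 3. Myl4, the embryonic and atrial light chain, read 11.04, 11.44, 10.92 and 9.12 in the high group and 8.68, 8.80, 7.93 and 8.19 in the low group. The first 3 were over 2 units above the low group and S10.8 was close to it, as for Ucp2. The difference was 2.23 ± 0.52 (SE; 95% interval 1.06 to 3.40; unadjusted p = 0.00186, limma), and 2.25 on slide 3. S15.2 read 11.43 with the high group, and S14.2 read 8.37 with the low group. Type 2B myofibers ran from 7.68 to 11.71, so that Myl4 varied as widely among them. Nes, an intermediate filament of young muscle, read 8.25, 8.83, 6.88 and 7.04 against 4.44, 7.26, 6.12 and 4.53 and overlapped through S5.9 (2.16 ± 0.72, SE; unadjusted p = 0.0140, limma).

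No gene of the other muscle lists passed either. The median was 0.21 for 27 genes of sarcomere structure, 0.12 for 26 of excitation and calcium release, 0.03 for 18 of the neuromuscular junction and denervation and 0.03 for 21 of protein breakdown and autophagy. In the last, Foxo3 and Map1lc3a, a regulator of autophagy and a coat protein of autophagosomes, differed by 1.09 ± 0.37 and 0.97 ± 0.36 (SE) with no overlap (slide 3, 0.59 and 0.10), and a second Foxo3 probe by -1.09. Sqstm1 was also apart (0.61 ± 0.37, SE), so that 3 of the 21 lay higher with no overlap, beside 2.07% of all probes. At an unadjusted p of 0.05 in limma, 2 were higher and 0 lower, beside 2.59% and 2.23% of all probes. The 78 cytosolic and 78 mitochondrial ribosomal proteins tested had medians of -0.01 and 0.09, and the 38 genes of the proteasome 0.15. For 45 of the 78 cytosolic ribosomal proteins the 95% interval lay within 1 log2 unit of 0.

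**Figure D5:**
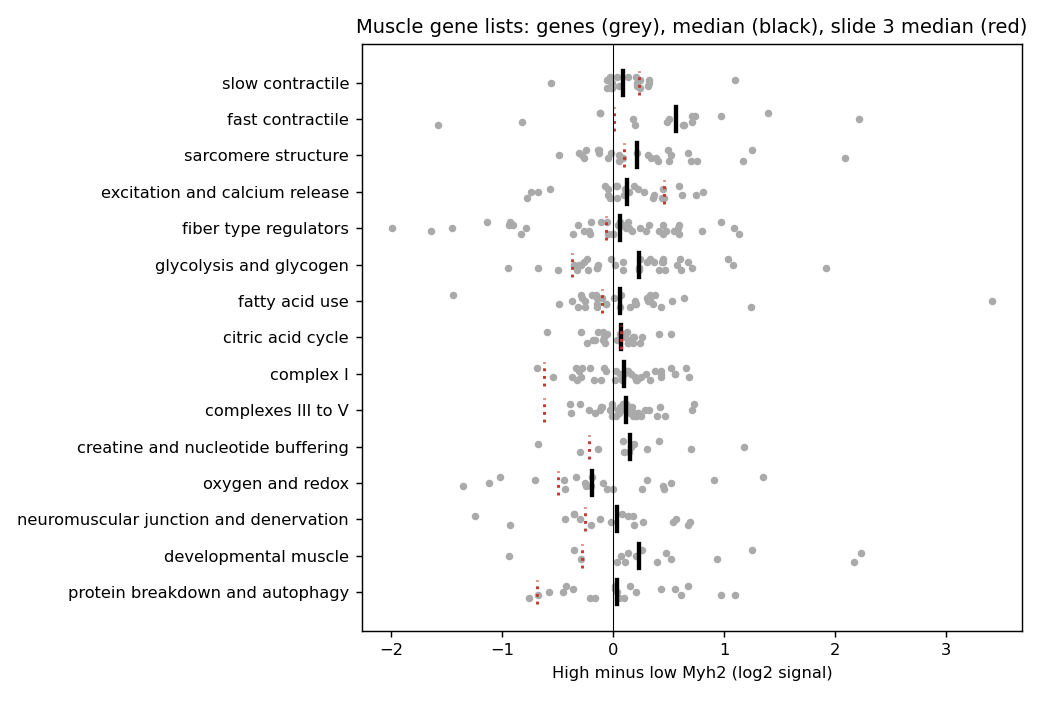
Difference in log2 signal, high minus low (horizontal axis), for 15 lists of muscle genes, with 1 grey point a gene, the list's median as a black bar and the median of the pair on slide 3 as a dotted red bar. The fast contractile genes have the median farthest from 0, at 0.56, and their slide 3 median lies at 0.01.

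Genes that respond to isolating the tissue were uneven in both groups. Of 25 tested, 18 were higher and 7 lower, with a median of 0.34 that was -1.04 on slide 3, and the median SE of 0.96 stood against 0.47 over all probes. Fos read 11.47, 11.82, 12.02 and 13.03 against 13.07, 12.76, 9.38 and 10.39, so that the split ran within the low group. Their part in the results above was not tested.

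Markers of other cell types were compared because cells can stay on a freed myofiber, and RNA of such cells and of the myofiber cannot be told apart. Of 9 satellite cell markers 4 to 7 were well above background in high and 6 to 8 in low myofibers, and their summed signal was 1597 to 3689 and 2283 to 6937. Pax7 itself read 2.46, 4.84, 6.47 and 5.16 against 6.84, 4.84, 3.81 and 4.32. Of 10 endothelial markers 3 to 10 and 4 to 10 were well above background (summed signal 2008 to 2826 and 1603 to 1961), of 10 of connective tissue cells 3 to 7 and 2 to 8 (310.2 to 3924 and 550.7 to 1319), and of 7 of adipocytes 2 to 5 and 1 to 7 (198.0 to 1217 and 211.7 to 925.2). For 8 of smooth muscle and pericytes it was 4 to 7 and 5 to 7 (1647 to 3298 and 1532 to 1956), for 8 of Schwann cells 3 to 6 and 3 to 7 (766.6 to 1248 and 637.9 to 863.5), and for 6 of tendon cells 2 and 2 to 5 (840.0 to 1528 and 836.8 to 1048). For 11 of blood cells it was 6 to 10 and 7 to 11 (60580 to 70192 and 37663 to 59940), a sum made almost wholly of 1 Itgam probe, whose 2 other probes read under 8. Tnmd, Pdgfra and Myf5 were well above background in none of the 8.

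S16.3, the myofiber with the most Myh2, also had the most signal of several of these markers. Its Col1a1 signal was 7.29 where the other 7 had 1.71 to 3.55, its Pecam1 signal 7.26 against 3.55 to 5.75, and its Fabp4 signal 9.78. Fabp4 was as high in the low myofiber S7.2 at 9.44, and under 3 in the rest, and Dcn was 7.22 and 7.55 in the same pair. One of the Xist probes read 9.57 in S16.3 and 3.11 to 4.15 in the other 7, while the second Xist probe read 1.68 to 2.39 in all 8. Without S16.3 no probe passed the adjusted threshold in limma, the fast median was 0.48 and the slow one 0.20. Without it Ucp2 differed by 3.40, Myl4 by 2.10, 2310065F04Rik by 1.45 and Ckm by 1.19. These genes were named for a small p in the same myofibers, so that the values are no separate support. The part of S16.3's markers in them was not tested.

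Of the markers, Vwf of endothelial cells read 8.66, 9.13, 8.45 and 8.96 against 7.45, 8.08, 7.83 and 8.23, with no overlap (0.91 ± 0.32, SE). Kdr, a receptor of endothelial cells, read 10.71, 11.02, 10.53 and 10.92 against 10.33, 10.12, 10.05 and 10.31 by its brightest probe, also with no overlap (0.59 ± 0.29, SE), and a second Kdr probe differed by -0.92 ± 1.78 (SE). Tagln of smooth muscle was likewise apart (0.50 ± 0.31, SE), while the list of smooth muscle and pericytes was higher in 2 and lower in 4 of 6 genes tested. S100b of Schwann cells read 3.56, 3.55, 3.15 and 3.54 against 5.01, 4.53, 4.46 and 4.04 and was well above background in 0 of 4 high and 3 of 4 low myofibers. With the high arrays taken at their limits it was 1.18-fold lower in the high group, which is no strict bound. The Schwann cell list was higher in 3 and lower in 4 of 7 genes tested. The endothelial list was higher in 3 and lower in 6 of 9 genes tested, while its summed signal, given above, lay higher in all 4 high than in all 4 low myofibers. That sum was made mostly of the brightest Kdr probe and is not separate evidence. The part of these markers in the other results was not tested.

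The probes with the smallest p were mostly dim. Rbm41, an RNA-binding protein gene of the X chromosome, had 2 of them. Its probe A_55_P1959308 read 2.74, 2.34, 3.04 and 2.31 in the high group and 5.16, 5.73, 5.84 and 5.34 in the low group, a difference of -2.91 ± 0.33 (SE; Benjamini-Hochberg adjusted p = 0.334, limma). Its probe A_55_P2080975 read 3.88, 3.98, 3.40 and 4.54 against 7.36, 7.13, 6.26 and 7.88, a difference of -3.21 ± 0.42 (SE; adjusted p = 0.334). Neither group overlapped at either probe. No high myofiber was well above background at either, while 3 of 4 and 4 of 4 low ones were. With the high arrays taken at their limits, Rbm41 was 2.37-fold lower in the high group by the first probe, which is no strict bound, and at least 6.25-fold lower by the second. S14.2 read 5.35 and 6.04, nearer to the low group, and type 2B ran from 2.12 to 4.35 and from 3.41 to 7.35.

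In the other direction a probe of Rsph3a, a radial spoke protein, read 4.6, 4.21, 4.17 and 4.27 against 1.61, 2.30, 1.90 and 2.11 (adjusted p = 0.334, limma). It was well above background in 2 of 4 high and 0 of 4 low myofibers, so that no fold is given, and a brighter Rsph3a probe differed by 1.26 ± 0.53 (SE). A probe of Fmo5, a flavin monooxygenase, was well above background in 1 of 4 high and 0 of 4 low myofibers, and a brighter Fmo5 probe differed by 0.24 ± 0.38 (SE). Il13, Fam184a and Gm7008 were also among the 10 smallest in that direction, and Il13 and Fam184a were well above background in 2 of 4 high and 0 of 4 low myofibers.

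Brighter probes among those lower in the high group were Dr1, a repressor of transcription, and Crkl, a signaling adaptor. Dr1 read 8.47 to 9.97 in the high and 10.46 to 12.16 in the low group, with no overlap (-2.63 ± 0.49, SE; slide 3, -1.99). Crkl read 6.15, 5.92, 5.16 and 5.18 against 7.12, 8.26, 9.32 and 9.49 (-2.94 ± 0.55, SE). S10.10 was the low myofiber nearest to the high group in both. Orc2, a subunit of the origin recognition complex, was the brightest of those higher and read 6.84, 6.79, 7.22 and 7.38 against 5.88, 4.85, 3.64 and 4.50.

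The series was made for its long noncoding RNAs, and the authors' table has values for 3668 probes that they took as such. By symbol, 565 of them belong to protein-coding genes in the gene table used here. Of the 3668 probes 2961 were tested, and 0 passed in limma, with 69 (2.33%) higher and 65 (2.20%) lower at an unadjusted p of 0.05, against 2.59% and 2.23% of all probes. The table's own values gave 164 at that level and also 0 after adjustment. Firre, an X-linked RNA of nuclear architecture, read 4.72, 5.13, 4.65 and 4.96 in the high group and 7.09, 8.49, 6.0 and 7.51 in the low group. The groups did not overlap (-2.41 ± 0.50, SE; unadjusted p = 8.8e-04, limma). On slide 3 the signal of S11.3 was below its limit. C330007P06Rik read 6.72, 6.01, 6.65 and 6.10 against 7.50, 8.42, 8.67 and 9.18, while S14.2 and S15.2 read 8.96 and 11.96. Of the noncoding RNAs that the study followed, Gas5, Neat1 and Pvt1 differed by -0.09 ± 0.49, -0.06 ± 0.55 and -0.29 ± 0.35 (SE).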

How the data were processed

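RNA of single myofibers was read, after amplification and Cy3 labeling, on 1-color Agilent mouse arrays. The authors deposited, for each array, the Feature Extraction 10.7.3.1 output, whose processed intensity is background subtracted and not normalized between arrays. They also deposited a table, of the probes they took as noncoding, with intensity that they had quantile normalized, on a linear scale with 0.01 as its lowest value. Each of the 8 columns used followed its own array. Per the methods, spots without the positive and significant flag were set to missing and spots of 1 probe were averaged. Any centring is not stated. The number of columns left unused was 0.

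The processed intensity was quantile normalized over the 21 arrays and taken as log2, spots with an outlier flag were left out, and spots of a probe were averaged. Probes positive and significant in at least 50% of the 10 type 1 myofibers were tested with limma 3.58.1 in R 4.3.3 (lmFit and eBayes, no covariate), with Benjamini-Hochberg adjustment at 0.05 over all of them. The script was tested on simulated data. Genes were named by accession (26425 probes), by name (4812) or as in the file (24444).

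Myofibers are the replicates, and p-values measure the spread between single myofibers, some of the same mouse. The myofibers and gene lists were chosen with earlier results of these data known. Named were the myosin heavy chain and contractile genes, the 10 probes of smallest p in each direction, of each list up to 4 genes of smallest p and 2 of highest signal, and markers of other cells. Fos, Ppargc1a, Rsph3a and Fmo5 second probes, Ndufb2, Firre, C330007P06Rik, Gas5, Neat1, Pvt1 and the S16.3 markers were added after their values were seen. Where no array of the dimmer group was well above background and at least 3 of the brighter were, a fold is given. It takes the dimmer arrays at their limits, or at their signals where these were higher, and the brighter arrays as read. Such a fold is a bound only where all 4 of the brighter were well above background, and it carries no sampling error. Other differences are of the signals as read. The number of arrays limits the precision. Alternatives changed the normalization, background correction, flags, filter, blocks for mouse and slide, the groups, the test and the threshold.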

Additional observations from a re-analysis of the deposited data

Results flagged for a closer look

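Of 161 groups of 4 myofibers examined over 81 probes, 15 had a myofiber far from the other 3 of its group, with a gap beyond Dixon's critical value. Chance gives about 1 in 20 such groups. S16.3 was the one apart 6 times: at Myh1 (4.87, the others 1.69 to 1.80), at Xist (9.57, the others 3.66 to 4.14), at Tnnt3 (10.58, the others 8.16 to 8.50), at Dr1 (9.97, the others 8.47 to 8.67), at Cd247 (2.54, the others 1.69 to 1.73) and at Myl3 (15.94, the others 16.50 to 16.59). S10.10 was apart from the low group 5 times. It was above it at Mylk2 (13.17, the others 10.72 to 11.03), at Myom2 (6.47, the others 2.72 to 3.30) and at the noncoding probes A_30_P01021290 (2.32, the others 1.82 to 1.88) and A_30_P01024456 (4.62, the others 2.18 to 2.48), and below it at Myh6 (12.57, the others 13.59 to 13.79). S10.10 is also the one low myofiber that was not on slide 1. The others were S11.3 at S100b (3.15, the others 3.54 to 3.56) and at Myh14 (10.07, the others 10.63 to 10.68), S7.2 at Il13 (1.86, the others 1.61 to 1.64) and S9.4 at Actn2 (13.81, the others 13.66 to 13.68). Several of these gaps are between signals near background or are under 0.5 on the log2 scale.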

How the results depend on the processing

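The count of 0 probes past the threshold stayed at 0 under the other scalings, background correction, filters, flags, tests, Bonferroni adjustment, the mouse or slide as a random block, the other choices of myofibers and 7 of the 8 settings that leave out a myofiber. With the slide as a fixed block it was 1078 (472 higher, 606 lower), where the estimate is only S11.3 minus S10.10 and 74 had an unadjusted p under 0.05 without the block. It was 1 (Cep135) when all 21 arrays were fitted with the slide as a fixed block, chosen after seeing the data, and 2189 at an unadjusted p. Leaving out each myofiber in turn gave 0 to 17, the 17 without S10.10, when the low group is all on slide 1. The median difference of the fast contractile genes, 0.56, was 0.0083 with the slide as a fixed block and equally between the fibers of slide 3 only (added after seeing the data), 0.21 with the slide as a random block, and 0.35 to 0.67 without single myofibers, lowest without S10.8. The slow median was -0.02 to 0.23, and 0.03 to 0.20 without single myofibers. The difference in the share of positive spots was -16.3 to -10.2 percentage points, and -15.4 to -6.55 without single myofibers, lowest in size without S11.3. The probes of the authors' table passed at 58 with the slide as a fixed block and at 0 otherwise, also without each myofiber. For 54 named genes and probes under 23 settings there were 1226 values. A reversal was counted only where the unadjusted p of the main fit was under 0.05. With such a p, 3 values reversed, all with the slide as a fixed block: Tnni2 to -1.30, Tfam to 0.11 and Myh15 to 1.35. The last lay between spots not well above background. The cause was not tested. Mylpf, Tnnc2, Tpm1 and Myl1, whose unadjusted p was over 0.05, also turned negative with the slide as a fixed block. Genes with such a p changed sign in other settings too. Myh7 kept its sign in 15 of 23, Casq2 in 19 and Myl1 in 20. Ucp2 (2.68 to 4.77), Myl4 (1.96 to 3.28), 2310065F04Rik (0.70 to 1.45) and Ckm (0.66 to 1.31) kept their sign in 23 of 23. So did others, among them Gpx3, Vwf, Tnni1 and the brightest Nrf1 probe. Genes named for a small p in these same myofibers gain no separate support from it. No paired analysis was possible because the fibers compared are of 1 labelled group, in which each has a replicate number of its own. Mouse 3 and slide 3, which both groups share, entered as blocks instead. The median SE was 0.47 with 4 against 4, and 3 of the 4 arrays of the low group but none of the high group were on slide 1.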
